A study of Mus musculus with 6 samples.

Results

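ADAM proteins (a disintegrin and metalloprotease) are membrane-anchored, zinc-dependent proteases. They cut other membrane proteins close to the cell surface, a step called ectodomain shedding that releases growth factors and cytokines, removes receptors and adhesion molecules, and prepares Notch receptors for gamma-secretase. Most catalytic ADAMs are made as a proenzyme whose prodomain is removed before they act, often by a proprotein convertase such as furin. In the intestine Adam10 and Adam17 are the best known members, the former through Notch and the latter through ligands of the EGF receptor.

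The 8 genes described here are Adam1a, Adam8, Adam9, Adam10, Adam12, Adam15, Adam17 and Adam19, out of 24190 genes in the count table and of 34 ADAM genes in the annotation. They were chosen by name with their Folfiri against control values in this experiment known, so their changes are given as a description with no p-value, and where a member is said to be past the threshold of the fit over all genes, that too is a description and no evidence of a change. RNA was sequenced from MTO54, a single mouse tumor organoid (MTO) line of colorectal cancer with the AKP genotype. Control organoids (3 samples) received complete stem cell medium, and Folfiri organoids (3 samples) received the same medium with 5FU at 50 μg/μl, the unit as written in the labels, and SN38 at 100 nM. Both groups are of this genotype and were treated from 2 days after seeding for 2 days according to the labels, whereas a legend in the paper gives a longer treatment. 5FU is an antimetabolite that inhibits thymidylate synthase, and SN38, the active form of irinotecan, inhibits topoisomerase I.

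Reads counted on genes ranged from 22103591 to 30098210 per sample. Of 12 epithelial markers, 11 reached a mean of 1 CPM (counts scaled to library size) in both groups. Of the fibroblast and endothelial markers 1 of 11 did so in control (Cdh5) and 2 of 11 in Folfiri (Cdh5 and Pdgfra), with Col3a1, Pdgfrb, Thy1 and Kdr at 0 in every control sample. Cdh5 stood at 89.8 and 70.6 CPM and was not past the threshold. Dcn and Pdgfra were higher after Folfiri (0.0240 and 0.694 CPM, 0.397 and 1.14 CPM) and Col1a1 was lower (0.842 and 0.301 CPM), and each of these last 3 genes passed the filter on low counts only through the group where it was higher. Of the immune markers 1 of 13 reached 1 CPM in control and 3 of 13 in Folfiri. Control replicate 1 and Folfiri replicate 3 stood apart from the others of their groups, with a chi-square per degree of freedom between counts of 23.9 to 25.3 and 12.8 to 13.3, against 4.03 and 3.76 for the remaining pairs. Levels below are CPM after TMM scaling, and log2 fold changes and their standard errors (SE) come from edgeR's quasi-likelihood fit over 14692 genes, with a Benjamini-Hochberg adjusted p of 0.05 as the threshold. The labels do not say that the samples of a group were separate cultures, while the paper's legend calls them biological replicates without saying more, so any p-value measures only the spread between these samples. In bulk RNA, fewer cells of a type and less RNA per cell cannot be told apart.

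The feature that makes an ADAM a protease is a short stretch in which 3 histidines bind zinc and a glutamate acts in catalysis. It was found in the coding sequence of all 8 genes. It is shown for the 6 genes with enough reads and for Adam1b, the neighboring copy of Adam1a, because reads from such copies are hard to assign. Each line is 33 bases of the GENCODE transcript, 5′ to 3′, with the codons of the 3 histidines, the glutamate and the conserved glycine in capitals.
Adam10: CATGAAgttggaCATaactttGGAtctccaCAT
Adam17: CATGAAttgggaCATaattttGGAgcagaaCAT
Adam9: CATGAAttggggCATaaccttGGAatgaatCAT
Adam15: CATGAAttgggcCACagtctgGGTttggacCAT
Adam8: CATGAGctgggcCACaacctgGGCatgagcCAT
Adam1a: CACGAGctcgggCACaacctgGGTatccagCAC
Adam1b: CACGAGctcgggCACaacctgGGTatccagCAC

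Adam10 and Adam17 differed at 7 of the 33 bases, whereas Adam10 and Adam1a differed at 15. Adam1a and Adam1b were identical over this stretch. A furin-type site ahead of the zinc-binding stretch, searched as an arginine, any residue, a lysine or arginine and an arginine, was found at least once in 7 of the 8 proteins, 3 times in Adam10, and not in Adam1a.

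Among the 8 genes, those most abundant in the untreated organoids were lower after Folfiri. Adam10, Adam9 and Adam17 were all lower, and Adam8, Adam1a and, by a small amount, Adam15 were higher. Adam12 and Adam19 were close to undetected in both groups. Of the 8 genes, 6 passed the filter on low counts and all 6 were past the threshold, 3 higher and 3 lower, where 79.1% of all tested genes were past it, 40.3% higher and 38.8% lower. These 6 include Adam1a, which passed the filter through the Folfiri samples alone, and nothing is read from the count. Their median log2 fold change was -0.42, and that of all tested genes was 0.02. With scaling to total counts these were -0.15 and 0.30. Over all 8 genes the median was -0.009 without the filter on low counts and 0.003 in DESeq2's Wald test. That of all genes was then 0.27 and 0.30. Of the 11 epithelial markers tested in the same samples 7 fell and 1 rose, with a median of -0.62. Those that fell include Epcam (log2 fold change -0.94), Cdx2 (-1.53), Lgals4 (-2.27) and, by less, Krt8 (-0.27). Cdh1 rose (0.21), and Krt18, Krt20 and Vil1 were not past the threshold (-0.18, -0.13 and -0.11). The part of the epithelial markers in the lower levels of Adam9, Adam10 and Adam17 was not tested.

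**Figure D1:**
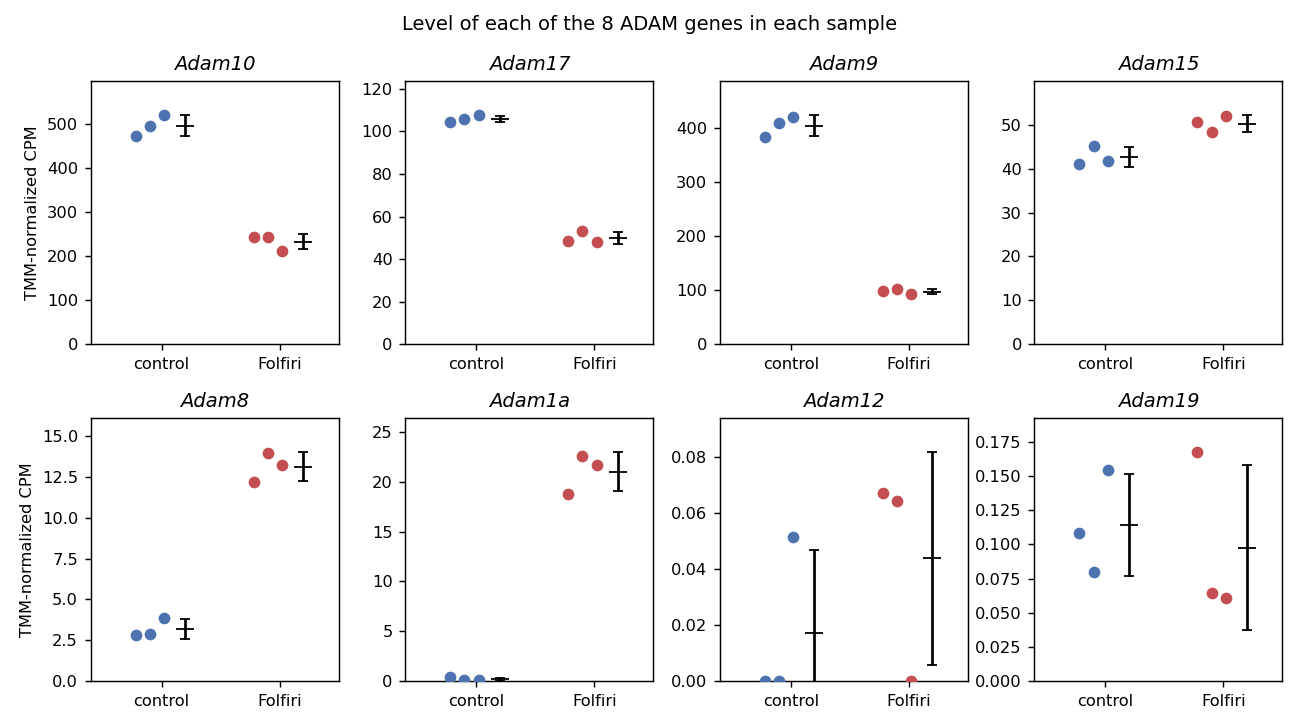
TMM-normalized CPM (y axis, from 0, a scale for each panel) of the 8 ADAM genes in the 3 control and 3 Folfiri samples. Points are samples, and the bar beside them is the mean ± SD. The groups do not overlap for Adam10, Adam17, Adam9, Adam15, Adam8 and Adam1a, and Adam12 and Adam19 stay under 0.2 CPM.

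Adam10 (ENSMUSG00000054693) is the main protease of Notch receptors and also cuts E-cadherin, CD44 and betacellulin. The gene lies on the plus strand at chr9:70678997-70780229 (GRCm38). It stood at 472, 495 and 519 CPM in control and at 243, 242 and 212 CPM after Folfiri. Every Folfiri sample lay below every control sample. The mean went from 495 ± 23.4 to 233 ± 17.8 CPM (SD, n = 3), which is 2.13-fold lower, with a log2 fold change of -1.09 (SE 0.08).

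Adam17 (ENSMUSG00000052593), also called TACE, releases tumor necrosis factor and most ligands of the EGF receptor. It lies on the minus strand at chr12:21323509-21373632. Levels were 105, 106 and 108 CPM in control and 48.6, 53.1 and 48.2 CPM after Folfiri. The groups were far apart, and the 3 control samples differed little from each other. Adam17 was 2.12-fold lower (log2 fold change -1.08, SE 0.07), a change close to that of Adam10. Of its exon bases, 4.35% overlap exons of Iah1 on the opposite strand. Iah1 itself fell from 33.3 ± 2.08 to 11.4 ± 0.523 CPM (SD, n = 3).

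Adam9 (ENSMUSG00000031555), a widely expressed sheddase that can cut heparin-binding EGF, showed the largest decrease of the tested members. It lies on the minus strand at chr8:24949611-25016927. It stood at 385, 410 and 422 CPM in control and at 97.8, 102 and 92.5 CPM after Folfiri. All 3 Folfiri samples were below all 3 control samples. The mean went from 405 ± 18.9 to 97.4 ± 4.69 CPM (SD, n = 3), 4.16-fold lower, with a log2 fold change of -2.06 (SE 0.08). No annotated exon overlaps those of Adam9 or Adam10, and none of their 50-base windows recurred in the transcripts of another gene.

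Adam15 (ENSMUSG00000028041) joins a protease to an integrin-binding disintegrin domain. It lies on the minus strand at chr3:89338542-89349996. Levels were 41.2, 45.2 and 41.7 CPM in control and 50.5, 48.2 and 52.0 CPM after Folfiri. The groups did not overlap, but the gap between the highest control and the lowest Folfiri sample was small. Exons of 4731419I09Rik on the opposite strand, a gene not analysed here, overlap 20.6% of its exon bases, and 15.4% of its 50-base windows occur in transcripts of other genes. The log2 fold change was 0.24 (SE 0.08), a 1.18-fold higher level, and 0.51 with scaling to total counts alone. Adam15 was not past the threshold without control replicate 3 (log2 fold change 0.21) or without the filter on low counts (0.21).

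Adam8 (ENSMUSG00000025473), known from leukocytes and from invasive tumors, lies on the minus strand at chr7:139978932-139992562. It stood at 2.81, 2.88 and 3.86 CPM in control and at 12.2, 14.0 and 13.2 CPM after Folfiri. Each Folfiri sample was well above each control sample. The mean went from 3.18 ± 0.586 to 13.1 ± 0.888 CPM (SD, n = 3), 4.17-fold higher, with a log2 fold change of 2.06 (SE 0.14). The immune markers summed to between 22.9 and 27.0 CPM in control and to between 27.98 and 29.3 CPM after Folfiri, of which Cd68 made up 23.6 and 20.5 CPM on average. Ptprc, the pan-leukocyte marker, was at 0.396 CPM in control and 1.06 CPM after Folfiri, and S100a8 at 0.913 and 5.22 CPM. Of the 5 immune markers tested 4 were past the threshold as higher (Ptprc, S100a8, Adgre1 and Fcer1g), where 40.3% of all tested genes were higher. Of these markers 3, all but S100a8, passed the filter on low counts through the Folfiri samples alone. Adgre1 was at 0.226 and 0.863 CPM in control and Folfiri and Fcer1g at 0.0819 and 0.537 CPM. Cd3d, Itgam and Csf1r were at 0 in every control sample and at a mean of 0.0112, 0.0544 and 0.0850 CPM after Folfiri. The part of immune cells in the level of Adam8 was not tested.

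Adam1a (ENSMUSG00000072647) encodes a form of fertilin alpha, a protein of the male germ line. Its counts were 10, 2 and 1 in control and 561, 699 and 716 after Folfiri. In CPM these were 0.360, 0.0800 and 0.0514 against 18.8, 22.6 and 21.7. The control level was near 0 in every sample, and the Folfiri samples lay close to each other. The log2 fold change was 6.84 (SE 0.29), or 114-fold, and 8.19 without control replicate 1, which held 10 of the 13 control counts. The gene passed the filter through the Folfiri samples alone.

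Adam12 (ENSMUSG00000054555, chr7:133883199-134232146, minus strand) and Adam19 (ENSMUSG00000011256, chr11:46055992-46147343, plus strand), the meltrins alpha and beta, are best known from mesenchymal tissue, muscle and heart. Adam12 had 0, 0 and 1 counts in control and 2, 2 and 0 after Folfiri. Adam19 had 3, 2 and 3 counts in control and 5, 2 and 2 after Folfiri. Neither was tested, and no fold is given, since a count of 0 allows up to 3 counts in a library of this depth and the other counts are as small. Such a limit covers counting error only.

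Levels of different genes were compared per kb of annotated exon. In control the order was Adam10 (101 ± 4.76 CPM per kb, SD, n = 3), Adam9 (98.5 ± 4.59), Adam17 (14.8 ± 0.204), Adam15 (6.95 ± 0.362), Adam8 (0.686 ± 0.126), Adam19 (0.0160 ± 0.00527), Adam1a (0.0218 ± 0.0227) and Adam12 (0.00162 ± 0.00281), ranked by the median sample. Of the 7 neighboring pairs in this order 5 did not overlap, and the pairs Adam10 with Adam9 and Adam19 with Adam1a did. After Folfiri the order was Adam10 (47.3 ± 3.62), Adam9 (23.7 ± 1.14), Adam15 (8.18 ± 0.308), Adam17 (6.99 ± 0.377), Adam1a (2.80 ± 0.262), Adam8 (2.83 ± 0.191), Adam19 (0.0137 ± 0.00853) and Adam12 (0.00415 ± 0.00360). Here 6 of 7 pairs did not overlap, the exception being Adam1a with Adam8. The length of Adam1a was taken as all its annotated exons, 7508 bases, whereas its single-exon transcript has 3496. Its level per kb, its place beside Adam8 and its share of the sum below depend on this choice. Adam10 and Adam9 thus overlapped in control and were apart after Folfiri, and Adam15 passed Adam17.

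**Figure D2:**
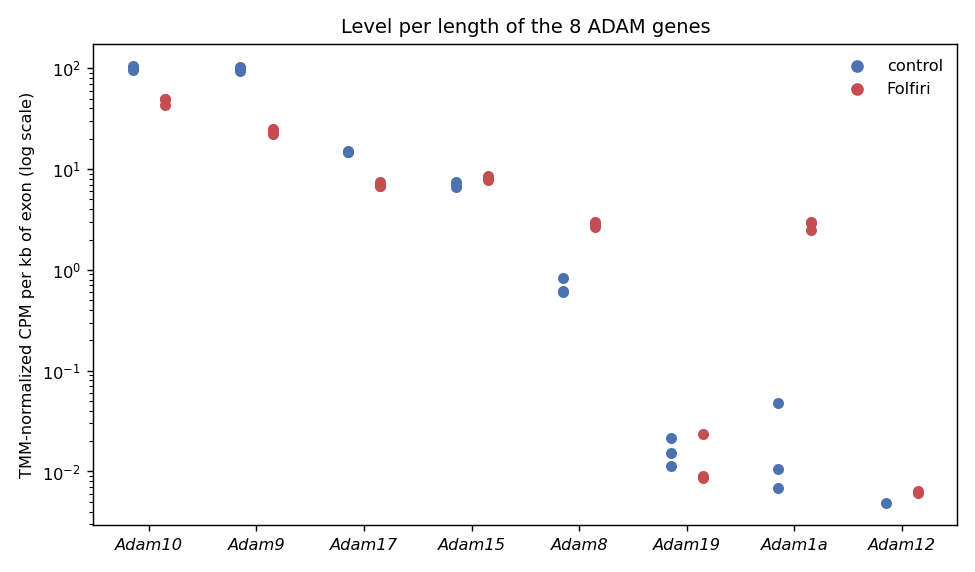
TMM-normalized CPM per kb of exon (y axis, log scale) of the 8 ADAM genes in control and Folfiri samples. Points are samples, and samples at 0 are not drawn. Adam10 and Adam9 overlap in control, at 101 and 98.5 CPM per kb on average, and separate after Folfiri, at 47.3 and 23.7.

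The summed level of the 8 genes per kb was 212, 223 and 231 in control and 93.5, 95.4 and 86.6 after Folfiri, so the total was lower in each Folfiri sample. Adam9 made up 44.4% of this sum in control and 25.8% after Folfiri. Adam10 made up 45.4% and 51.5%. Adam15 went from 3.13% to 8.93% and Adam1a from 0.0101% to 3.06%.

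Adam1a had the largest exon overlap of the 8 genes. In the annotation it has a single-exon transcript of 3496 bases and a second transcript of 15 exons that runs through the exons of Mapkapk5, together spanning chr5:121518576-121545482 on the minus strand. Exons of other genes cover 63.7% of its exon bases, and exons of the counted genes alone cover 35.3%. The overlap with the counted genes, Tmem116 and Mapkapk5, lies in the 15-exon transcript. The single exon overlaps exons of Gm42878 only, a gene not in the count table. Of its 50-base windows, 77.8% also occur in transcripts of other genes, 118 in number and among them Adam1b, Mapkapk5, Tmem116 and Gm42878. Whether the authors counted reads on overlapping genes or with several positions is not given in the sources used here, and the library kit does not mark strand.

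The overlapping genes did not all move with Adam1a. Mapkapk5, on the same strand, had 127, 150 and 127 counts in control and 132, 131 and 162 after Folfiri, and was not past the threshold (log2 fold change -0.32, SE 0.16, adjusted p = 0.082 by edgeR). Tmem116, on the opposite strand, rose from 26, 12 and 15 to 106, 87 and 89 counts (log2 fold change 2.03, SE 0.25). How far reads of Mapkapk5 or Tmem116 were counted for Adam1a was not tested. Aldh2, 20545 bases away, fell (log2 fold change -0.61, SE 0.11). Adam1b, a gene of 1 exon at chr5:121500098-121503435, had 4, 2 and 1 counts in control and 219, 285 and 289 after Folfiri (log2 fold change 6.38, SE 0.28), and shares 32.4% of its 50-base windows with Adam1a and with no other gene. Adam1a and Adam1b counts were therefore high in the same 3 samples, and how far reads of one were counted for the other was not tested.

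**Figure D3:**
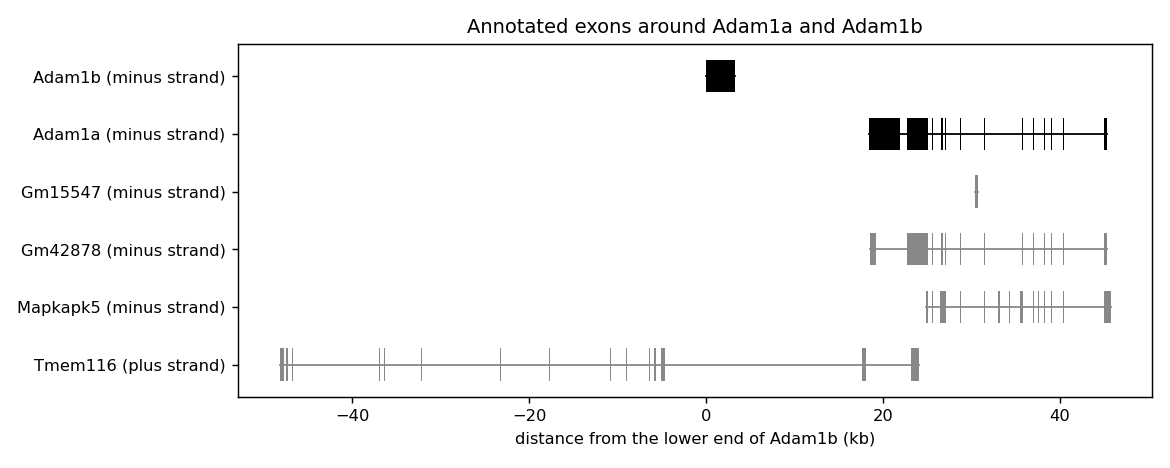
Annotated exons (boxes) of Adam1a, Adam1b and the genes that overlap Adam1a, by distance in kb from the lower end of Adam1b (x axis), with the strand beside each name. The 15-exon transcript of Adam1a shares exons with Gm42878 and Mapkapk5, and its large single exon, at the left end of the gene, lies on the strand opposite to Tmem116.

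Because Adam1a and Adam1b are genes of the male germ line, other markers of that lineage were counted. Of 16 such markers with counts, 4 were tested. Adam1b and Adam2 rose, and Ddx4 and Izumo1 fell (log2 fold changes -0.82 and -1.83), where 40.3% of all tested genes rose and 38.8% fell. Adam1b passed the filter through the Folfiri samples alone, and Ddx4 and Izumo1 through the control samples alone. Dazl, Prm2, Tnp2, Acrv1 and Sycp3 were at 0 in every control sample and at a mean of 0.0101 to 0.0960 CPM after Folfiri. Without Adam1b the 15 markers summed to between 3.14 and 3.96 CPM in control and to between 3.42 and 4.34 CPM after Folfiri, which overlap.

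Of the 26 other ADAM genes listed, 18 were in the count table and 8 were tested. Of these 6 rose and 1 fell, with a median log2 fold change of 2.44, where 40.3% of all tested genes rose and 38.8% fell. Several of these other ADAM genes were near 0 in control. Of the 6 that rose 5, Adam1b, Adam4, Adam21, Adam22 and Adam32, passed the filter through the Folfiri samples alone. The count and the median are therefore given as a description. Adam22, a neuronal receptor of LGI proteins with no zinc-binding stretch in its coding sequence, rose from 0.189 ± 0.0549 to 3.12 ± 0.225 CPM (SD, n = 3). Adam4, which also lacked the stretch, rose from 0.150 to 2.62 CPM on average, Adam21 from 0.0476 to 0.661 CPM and Adam32 from 0.495 to 1.05 CPM. Adam2, fertilin beta, rose from 1.51 to 2.36 CPM with overlapping groups (adjusted p = 0.0311 by edgeR). The genes that rose numbered 5, not 6, without control replicate 3, without Folfiri replicate 1, without Folfiri replicate 3 and in DESeq2's Wald test. Adam18 fell from 10.5 to 3.75 CPM (log2 fold change -1.48, SE 0.14), and Adam33 was not past the threshold (0.677 and 0.818 CPM, adjusted p = 0.366 by edgeR).

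**Figure D4:**
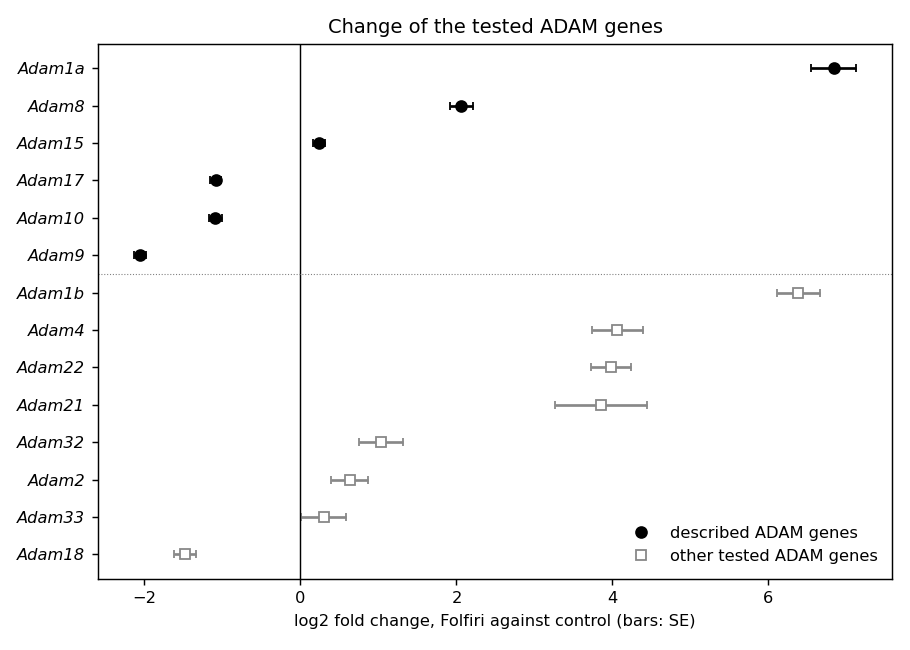
Log2 fold change of Folfiri against control (x axis) of the 6 tested members of the 8 (filled circles) and of the 8 other tested ADAM genes (open squares), with bars for the SE. Changes run from -2.06 for Adam9 to 6.84 for Adam1a, and among the others from -1.48 for Adam18 to 6.38 for Adam1b.

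The genes differed in genomic length as well. Adam9, Adam10 and Adam17, which were lower, span 67.3, 101 and 50.1 kb, and Adam1a, Adam8 and Adam15, which were higher, span 26.9, 13.6 and 11.5 kb. Among the other tested ADAM genes of at least 50 kb, Adam18 (72.5 kb) fell, and Adam2 (50.4 kb), Adam32 (113 kb) and Adam22 (296 kb) rose, the last 2 of these having passed the filter through the Folfiri samples alone. Among all tested genes below 20 kb, 38.1% fell and 41.7% rose. Of those of 20 to 50 kb 32.6% fell and 46.3% rose, with a median log2 fold change of 0.18. Of those of 50 to 150 kb 42.2% fell and 35% rose, with a median of -0.07. Of those over 150 kb 60.3% fell and 19.7% rose, with a median of -0.55. The part of genomic length in the changes of the ADAM genes was not tested.

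By the distance between profiles of log2 CPM over the 6 samples, each centered on its mean, the genes closest to Adam9 were Fto (0.126), Ccser1 (0.131) and Hydin (0.136), which span 355, 1203 and 343 kb. Fto went from 108 ± 6.94 to 26.6 ± 2.09 CPM (SD, n = 3). The genes closest to Adam1a were Tnfsf15 (0.570), Cxcl3 (1.01) and Adam1b (1.45), which span 18.0, 3.50 and 3.34 kb. Tnfsf15, a cytokine of the TNF family, went from 0.189 ± 0.182 to 18.1 ± 3.34 CPM, and the chemokine gene Cxcl3 from 0.404 ± 0.190 to 65.7 ± 9.98 CPM (SD, n = 3). The distances were taken among 14692 genes.

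The promoters of the members were of different kinds. RefSeq windows of 300 bases on GRCm38.p6 (250 before to 50 after the start, 5′ to 3′ on the gene's strand) were found for 6 of the 8 genes. They are shown for Adam10, the most abundant member and one that was lower, and for Adam1a, the member with the largest increase, with CpG dinucleotides in capitals. They lie at chr9:70678732-70679031 on the plus strand and at chr5:121521646-121521945 on the minus strand. The Adam1a window follows the RefSeq start and lies within the single exon of the shorter GENCODE transcript of Adam1a, so it is not upstream of that transcript.
Adam10: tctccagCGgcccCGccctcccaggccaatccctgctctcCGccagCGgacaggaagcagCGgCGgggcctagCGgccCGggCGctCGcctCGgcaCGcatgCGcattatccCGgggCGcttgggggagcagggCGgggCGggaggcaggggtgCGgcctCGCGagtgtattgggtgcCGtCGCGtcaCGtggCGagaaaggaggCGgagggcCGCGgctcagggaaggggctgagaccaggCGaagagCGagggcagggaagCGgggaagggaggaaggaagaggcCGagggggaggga
Adam1a: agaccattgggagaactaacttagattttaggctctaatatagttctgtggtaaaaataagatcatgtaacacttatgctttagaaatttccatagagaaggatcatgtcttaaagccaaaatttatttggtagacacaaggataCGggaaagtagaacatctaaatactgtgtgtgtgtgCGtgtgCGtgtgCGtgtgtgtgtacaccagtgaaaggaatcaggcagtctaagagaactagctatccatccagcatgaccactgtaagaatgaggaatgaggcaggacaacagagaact

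The Adam10 window holds 32 CpG dinucleotides and that of Adam1a 4, against a median of 7 over 32851 RefSeq promoters. Adam17 had 30 and Adam15 25, whereas Adam8 had 6 and Adam1b 2. CpG-rich windows therefore belonged to members that were lower (Adam10, Adam17) and to one that was higher (Adam15). TATAAA, searched on both strands, was in none of the members' windows and in 13.6% of all promoters. TGANTCA, searched on both strands, was in 1 of 3 Adam19 windows and in that of Adam1b, and in 7.81% of all promoters.

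Of the tested genes that bring ADAM proteins to the surface in active form, 12 of 20 were not past the threshold. The lists in this and the next paragraphs were drawn up by role from general knowledge, with earlier results of these data known. Their counts stand beside 40.3% of all tested genes that rose and 38.8% that fell. Among these genes for maturation and trafficking 4 rose and 4 fell, with a median log2 fold change of -0.01, which turned to 0.26 with scaling to total counts, where 11 were higher and 1 lower. Without control replicate 1, 8 were higher and 3 lower. Rhbdf2 (iRhom2), the escort of Adam17, rose from 20.3 ± 1.20 to 32.2 ± 2.14 CPM (SD, n = 3), and its partner Frmd8 rose from 45.3 to 70.8 CPM on average. The sorting nexins Snx18 and Snx9 rose by 0.77 and 0.29 on the log2 scale. Pdia6, a disulfide isomerase of the endoplasmic reticulum, fell from 487 to 225 CPM. Tspan17, one of the tetraspanins that escort Adam10, fell from 6.48 to 4.54 CPM and Pacsin3 from 33.2 to 25.1 CPM, both no longer past the threshold with total counts (adjusted p = 0.114 and 0.216 by edgeR). Furin, which was named after its values were seen, was at 119 ± 9.26 and 132 ± 13.2 CPM (SD, n = 3), not past the threshold (adjusted p = 0.136 by edgeR).

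Of 5 genes for protein inhibitors of metalloproteases 2 were tested and 0 were past the threshold in edgeR's quasi-likelihood test, also at an unadjusted p of 0.05. DESeq2's Wald test, which was run on all 5, called 1. Timp3, an inhibitor of Adam17, was not tested in edgeR's fit, with 1, 1 and 0 counts in control and 15, 10 and 6 after Folfiri, groups that do not overlap. Timp2 was at 184 ± 11.4 CPM in control and 199.8 ± 5.55 CPM after Folfiri (adjusted p = 0.14 by edgeR). Timp1, an inhibitor of Adam10, was at 2.77 ± 0.490 and 3.12 ± 0.184 CPM (SD, n = 3, adjusted p = 0.395 by edgeR). Timp2 and Timp1 were past the threshold, as higher, with scaling to total counts alone. The related ADAMTS proteases, which are secreted, moved mostly down, with 5 lower and 2 higher of 8 tested and a median of -1.38. Over all 19 ADAMTS genes, which adds genes with very few counts, the median was 0.47 without the filter on low counts and 0.51 in DESeq2's Wald test. Of the ADAMTS genes past the threshold 1 higher gene passed the filter through the Folfiri samples alone and 1 lower gene through the control samples alone. Adamts7 fell from 29.4 to 4.51 CPM, Adamts17 from 11.3 to 2.13 CPM, Adamts9 from 6.36 to 1.62 CPM and Adamts1 from 1.83 to 1.06 CPM, and Adamts4 rose from 0.858 to 1.55 CPM.

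Growth factors and cytokines that ADAM proteases release mostly rose. Of 12 tested, 9 rose and 2 fell, with a median log2 fold change of 1.14, against 0.02 for all genes. Of the 9, 1 passed the filter through the Folfiri samples alone. Tnf, the classical substrate of Adam17, rose from 3.79 ± 0.691 to 29.2 ± 2.93 CPM, and Csf1, a growth factor of macrophages, from 0.949 ± 0.363 to 18.6 ± 3.39 CPM (SD, n = 3). Kitl, the ligand of Kit, rose from 53.9 to 184.6 CPM and the EGF receptor ligand Ereg from 9.18 to 29.0 CPM. Areg and Hbegf, further EGF receptor ligands that Adam17 releases and named after their values were seen, rose from 26.5 to 47.1 CPM and from 15.4 to 39.3 CPM. Btc fell from 77.1 to 48.8 CPM. Tgfa fell from 110.4 to 94.4 CPM, a change that turned to a slight increase, not past the threshold, with scaling to total counts (log2 fold change -0.23 and 0.05). Adam17 was lower in the same Folfiri samples.

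Of 22 tested genes for receptors that are shed 8 were higher and 8 lower, 36.4% each and so near the shares of all tested genes, with a median of 0.12. Of the 8 higher genes 2, Il1r2 among them, passed the filter through the Folfiri samples alone. Notch3 fell from 69.5 ± 7.92 to 6.51 ± 1.64 CPM (SD, n = 3), whereas Notch1 rose (log2 fold change 1.43, SE 0.15). Among the Eph receptors, Epha2 rose from 114 ± 2.72 to 484 ± 12.5 CPM (SD, n = 3), and Ephb2, a marker of the crypt base, fell from 78.5 to 12.5 CPM. Met, the receptor of hepatocyte growth factor, rose from 21.5 to 58.1 CPM and the decoy receptor Il1r2 from 0.303 to 2.00 CPM. The lipoprotein receptor Lrp1 fell from 19.7 to 4.02 CPM. With scaling to total counts 14 of the 22 were higher and 6 lower.

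Of 30 tested genes for shed adhesion and surface proteins 10 rose and 16 fell, with a median of -0.32. Of these 3 higher genes passed the filter through the Folfiri samples alone and 1 lower gene, Dll4, through the control samples alone. Bsg (basigin) fell from 2954 ± 538 to 585 ± 33.7 CPM and Lrig1, a stem cell gene that restrains EGF receptors, from 109 ± 2.68 to 18.4 ± 1.90 CPM (SD, n = 3). Alcam fell from 92.9 to 35.5 CPM and the Notch ligand Dll4 from 1.82 to 0.311 CPM. Icam1 rose from 3.90 to 16.7 CPM, Dsg2 from 213.9 to 306 CPM, Efnb2 from 27.6 to 41.9 CPM and the Notch ligand Jag2 from 198 to 289 CPM. With scaling to total counts 12 were higher and 14 lower.

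**Figure D5:**
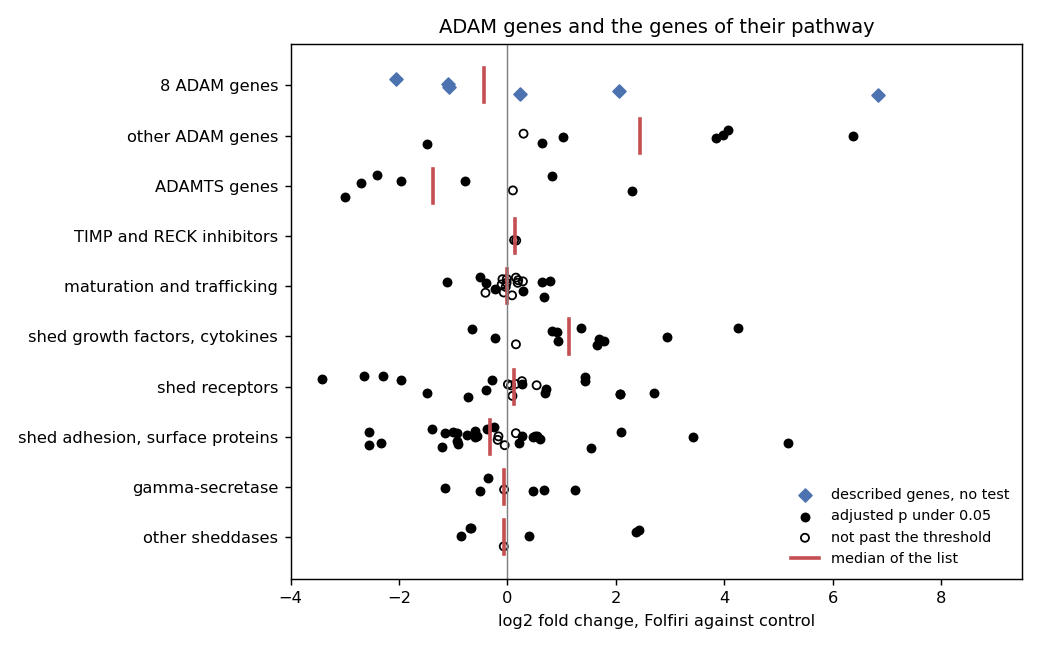
Log2 fold change of Folfiri against control (x axis) of the tested genes of each list (rows). Diamonds are the 6 tested members of the 8 ADAM genes, filled circles genes past an adjusted p of 0.05, open circles genes that were not, and the vertical bars the medians, which run from -1.38 for the ADAMTS genes to 2.44 for the other ADAM genes.

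Gamma-secretase, which cuts what Adam10 leaves in the membrane, changed subunit by subunit. Of 7 tested genes 3 rose and 3 fell, with a median of -0.06, and with scaling to total counts 4 rose and 1 fell. Psen2, a catalytic subunit, rose from 3.67 to 8.90 CPM. Psenen fell from 82.8 to 37.3 CPM. Ncstn and Aph1b fell by 0.36 and 0.51 on the log2 scale, both no longer past the threshold with total counts (adjusted p = 0.307 and 0.181 by edgeR), Aph1c rose by 0.48 with overlapping groups (adjusted p = 0.0441 by edgeR), and Aph1a was not past the threshold (108 and 104 CPM, adjusted p = 0.399 by edgeR). The gamma-secretase genes that rose numbered 2, not 3, with the replicate number as a block, in DESeq2's Wald test, without the filter on low counts, and without control replicate 1, control replicate 2, Folfiri replicate 1 or Folfiri replicate 2. Of 7 tested sheddases outside the ADAM family 3 were past the threshold as higher and 3 as lower, where 2 of the 3 higher ones passed the filter through the Folfiri samples alone. Bace2 fell from 33.6 to 18.5 CPM, the rhomboid protease Rhbdl2 from 20.3 to 12.7 CPM and Mmp7 from 5.53 to 3.45 CPM, the last not past the threshold with total counts (adjusted p = 0.0791 by edgeR), and Mmp15 rose from 64.1 to 84.8 CPM.

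The genes next to the members moved in either direction. Adam32, 807 bases from Adam9 on the same strand, rose while Adam9 was lower. Tm2d2, 284 bases from the other end of Adam9, fell from 71.5 to 38.9 CPM. Lipc, downstream of Adam10, fell from 1.24 to 0.439 CPM. Tubgcp2, next to Adam8, fell from 23.6 to 8.72 CPM, and Efna4, 514 bases from Adam15, was not past the threshold (19.6 and 18.0 CPM, adjusted p = 0.2 by edgeR), nor was Cpsf3 near Adam17 (55.6 and 54.8 CPM, adjusted p = 0.855 by edgeR). Fank1, next to Adam12, fell from 0.737 to 0.169 CPM, and Gm12166, next to Adam19, was not past the threshold (32.6 CPM in each group, adjusted p = 0.979 by edgeR). Gm16201, 6430531B16Rik, D7Ertd443e, Dcst1, Gm22766 and Nipal4 were counted at 10 or fewer reads in every sample and were not tested.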

How the data were processed

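RNA sequencing counts of 3 control and 3 Folfiri samples were used, grouped by the labels. The authors aligned reads with STAR 2.5.2 to the mouse genome (mm10, GRCm38) with GENCODE annotation. Sambamba was used for sorting and Rsubread for counting, and the counts were deposited as raw values per gene. The settings for overlapping genes, several positions and strand are not given in the sources used here.

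The members and lists were chosen with earlier results of these data known. Counts were filtered with edgeR's default expression filter, scaled by TMM and fitted with the quasi-likelihood test of edgeR 4.0.16 in R 4.3.3, with Benjamini-Hochberg adjustment over 14692 genes and a threshold of 0.05. The procedure was tested on simulated data. Symbols, exons and transcripts came from GENCODE vM21, an earlier release than the vM25 the authors counted with, on the same build, so overlaps, transcripts and lengths may differ from theirs. It matched 24168 of 24190 identifiers. Promoters came from RefSeq. Replicates of a group differed by more than sampling noise, so none was merged. No set test was run.

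Named were the 8 members, other ADAM genes with at least 10 counts in 3 samples, tested inhibitors and gamma-secretase genes, and in other lists up to 4 genes per direction ranked by absolute log2 fold change that were past the threshold, with groups apart and a mean of at least 1 CPM, beside nearest and overlapping genes and the 3 nearest profiles of the members with the highest and the lowest log2 fold change. Values of some genes that this rule covers are not reported here. Classes of genomic length were chosen after the values were seen. Other settings tried were scaling by DESeq2 size factors or by total counts, upper quartile scaling, other filters, the Wald test of DESeq2 1.42.0, the replicate number as a block, leaving out each sample and, for levels per kb, the longest transcript.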

Additional observations from a re-analysis of the deposited data

How the results depend on the processing

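Signs of the 6 tested members held in all 13 alternatives. Members past the threshold numbered 5 or 6, the 5 arising without control replicate 3 and without the filter on low counts, where Adam15 was lost. Scaling to total counts raised the median of all genes from 0.02 to 0.30 and the share of calls that were higher from 51.0% to 63.3%, and gave 2.34 for Adam8, -1.78 for Adam9, -0.81 for Adam10 and -0.81 for Adam17. Leaving out each sample in turn gave 6.47 to 8.19 for Adam1a, 1.98 to 2.20 for Adam8, -2.09 to -2.02 for Adam9, -1.12 to -1.03 for Adam10, 0.21 to 0.27 for Adam15 and -1.12 to -1.06 for Adam17. All genes past the threshold numbered 11021 to 12312 when samples were left out and 11499 to 12742 otherwise, against 11623. Of the inhibitor genes, 2 were past the threshold with total counts, 1 with upper quartile scaling, 1 without the filter on low counts, 1 with DESeq2's Wald test and 0 to 1 when samples were left out, against 0, and the cause was not tested. In the other lists the total past the threshold stayed within 1.5 times. By direction, more changed: total counts gave 11 higher and 1 lower for maturation and trafficking (4 and 4 in the fit reported), 4 and 1 for gamma-secretase (3 and 3) and 14 and 6 for receptors (8 and 8), and without control replicate 1 maturation had 8 and 3. The growth factors past the threshold as lower numbered 1, not 2, with total counts, with upper quartile scaling, and without control replicate 1, Folfiri replicate 2 or Folfiri replicate 3. With the length of the longest transcript 7 of 7 neighboring pairs were apart after Folfiri. As a replicate block, the numbers of the samples gave 11499 genes and all 6 tested members past the threshold. Same-numbered samples correlated at 0.03, -0.12 and 0.04 in their deviations, and differently numbered ones at -0.12 to 0.12. The numbers therefore showed no pairing, which a check on 3 samples a group cannot exclude. Depth limits Adam12 and Adam19, at 0 to 5 counts a sample, and the control level of Adam1a.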
